A study of Mus musculus with 30 samples.

Results

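The cell division genes are a set of 40 listed mouse genes that cells use to leave G1, copy their DNA and divide. Each was read from the 1 probe set annotated to its symbol alone that had the highest mean log2 value over all arrays. This gave values for 39 of the 40, out of 18193 genes measured in the series. They are 3 G1 cyclins, 11 replication genes and 25 of 26 mitosis genes. Ccnb1, the main mitotic B cyclin, had no probe set carrying its symbol alone, so its expression was not analysed here.

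The samples were whole tissues from male C57BL/6 mice, 8 to 10 weeks of age. Angiotensin II is the peptide hormone of the renin-angiotensin system that constricts vessels and raises blood pressure. It was infused from an Alzet pump at 1500 ng/kg/min, dissolved in Ringer's solution with acetic acid in saline, for 1, 3 or 7 days. Day 0 mice received no angiotensin II, and nothing in the labels states whether they carried a pump. Heart had 3 arrays at each of days 0, 1, 3 and 7. Kidney had 2 arrays at each of those days. Brain had 2 arrays at days 0, 3 and 7. Vessel had 1 array at each of the 4 days and therefore supports no test. Replicates are numbered in the labels as biological replicates, and nothing ties the organs of a given mouse to each other. The p-values measure only the spread between these samples.

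A cell commits to division when D and E cyclins activate their kinases and release the E2F factors, which switch on the genes for DNA synthesis. The second wave, in G2 and M, supplies the cyclin A and B kinases, the spindle, the chromosomal passenger and checkpoint proteins and the machinery that destroys the cyclins at anaphase. Adult cardiomyocytes, neurons and most kidney tubule cells rarely divide, while fibroblasts, endothelial cells and leukocytes of the same organs can re-enter the cycle.

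The genes of the G2 and M wave often share promoter elements, so these were searched for in the members and are shown for some of them. Promoter windows of 300 bases, from 250 before to 50 after the RefSeq start in GRCm38.p6, were searched on both strands for the CHR element (TTTGAA), the CCAAT box and an E2F site (TTCCCGC or TTTGGCG). The matches of different motifs were allowed to overlap. The CHR element was found in 17 of the 22 mitosis members with a promoter in the table (77.3%), against 20.2% of all 27025 genes with one. Of 10 replication members with a promoter, 1 held it, and that was Mcm2. The E2F letters showed the other distribution. They were found in 5 of 10 replication members (50%), namely Mcm3, Mcm5, Mcm6, Mcm7 and Rrm1, in 0 of 22 mitosis members and in 6.83% of all genes. The split was less sharp beyond the members. Of 58 other mitosis genes with a promoter, 13 held E2F letters (22.4%) and 36 the CHR element (62.1%). Of 36 other replication genes, 23 held E2F letters (63.9%) and 7 the CHR element (19.4%). CCAAT boxes were in 86.4% of the mitosis members, 80.0% of the replication members and 41.1% of all genes. The 22 mitosis members with a promoter include Ccnb1, which held a CCAAT box but no CHR element or E2F letters. A match is a description of these letters and not evidence of binding. The sequences below are the 120 bases directly before each start, on the strand of the gene, with capitals for matches to any of the 3 motifs on either strand. Cdk1 and Top2a act at entry into mitosis and on sister chromatids, Ube2c and Cdc20 act at the end of mitosis, and Mcm6 and Rrm1 are replication members with E2F letters. Mcm6 and Rrm1 passed no test between days in heart. Rrm2 and Tk1, the replication members that rose in heart from day 1 to day 3, held neither E2F letters nor a CHR element.
Cdk1 promoter, chr10:69352913-69353032 (- strand): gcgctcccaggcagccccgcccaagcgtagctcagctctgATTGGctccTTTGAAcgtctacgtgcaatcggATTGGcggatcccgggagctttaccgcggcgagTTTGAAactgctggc
Top2a promoter, chr11:99024190-99024309 (- strand): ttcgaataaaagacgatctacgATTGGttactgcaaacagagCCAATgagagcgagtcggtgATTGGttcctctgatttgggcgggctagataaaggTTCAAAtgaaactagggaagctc
Ube2c promoter, chr2:164769809-164769928 (+ strand): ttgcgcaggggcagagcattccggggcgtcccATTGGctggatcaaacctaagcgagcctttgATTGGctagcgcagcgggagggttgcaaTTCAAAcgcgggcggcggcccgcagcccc
Cdc20 promoter, chr4:118437344-118437463 (- strand): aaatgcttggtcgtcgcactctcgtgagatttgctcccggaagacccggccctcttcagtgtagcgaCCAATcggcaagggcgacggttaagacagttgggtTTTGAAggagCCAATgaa
Mcm6 promoter, chr1:128359706-128359825 (- strand): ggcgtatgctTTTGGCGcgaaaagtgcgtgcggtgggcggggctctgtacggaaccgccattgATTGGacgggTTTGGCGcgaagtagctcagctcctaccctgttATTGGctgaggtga
Rrm1 promoter, chr7:102441575-102441694 (+ strand): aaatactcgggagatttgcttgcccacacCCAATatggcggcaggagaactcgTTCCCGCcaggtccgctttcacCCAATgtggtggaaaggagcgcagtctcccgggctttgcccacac
In these 120 bases Cdk1 held 2 CHR matches, and Top2a, Ube2c and Cdc20 each held 1. Mcm6 held 2 E2F matches and Rrm1 held 1, and both held 2 CCAAT boxes.

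The deposited intensities were on a common linear scale, with array medians from 35.2 to 37.8, and replicate arrays of a group correlated at 0.9665 or more. The tissues carried their own markers. The summed cardiomyocyte markers were between 113008 and 128832 on the heart arrays, 317 to 389 in kidney and 645 to 985 in brain. Brain day 0 replicate 2 stood apart in neutrophil markers (summed intensity 9411 against 1006 on the other day 0 array). Brain day 0 replicate 1 and day 7 replicate 2 stood apart in kidney markers (5111 and 2901, against 294 to 360 on the other brain arrays). Kidney day 0 replicate 2 and day 3 replicate 2 stood apart in adrenal markers (4855 and 8872, against 451 and 404 on their partner arrays). In adipocyte markers, both kidney day 1 arrays (20736 and 24573) and kidney day 3 replicate 2 (40205) stood above the other kidney arrays (2636 to 4086). The vessel arrays varied in cardiomyocyte markers, from 2025 at day 3 to 16706 at day 0, and the day 3 array was highest in brain markers (1995 against 267 to 402) and adrenal markers (1489 against 471 to 655). In bulk tissue a change in the number of dividing cells and a change in RNA per cell cannot be told apart. No defining marker was at 0, since arrays give every probe set a background value.

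A member was tested in a tissue when enough arrays, namely as many as there are in the smallest group of that tissue, read it above their own 40th percentile. In heart 32 of the 39 members passed. Ccne2, Tyms, Aurkb, Bub1, Ttk, Kif11 and Kif20a did not, and Cdca8 passed only when the day 3 arrays were counted, where it read 21.1, 85.9 and 138. Cdca8 is kept in the counts of tested members, so its part in the day 3 counts is not independent of the filter. Differences below are on the log2(intensity + 16) scale, which understates changes of weak signals. They carry the standard error of limma's moderated test and its p-value adjusted by Benjamini-Hochberg over all tested genes, with a threshold of 0.05.

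Through the first day of infusion the division genes of the heart stayed near their day 0 values, with a single member past the threshold. At day 3 most mitosis genes were above day 0, up to several-fold on 2 of the 3 arrays and only slightly on the remaining one, and at day 7 they were lower than at day 3, with a median of 0.17 above day 0. From day 1 to day 3, 13 of the 32 tested members rose, 11 of them mitosis genes and 2 replication genes, against 2.83% of all tested genes. That count fell to 0 when any 1 of 3 arrays was left out or when only the arrays of days 1 and 3 were fitted. The difference between day 3 and day 0 was of similar size and did not pass the threshold for any member. The contrasts share arrays (the day 3 arrays enter 3 of them), so their values are given side by side and not as separate support.

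**Figure D1:**
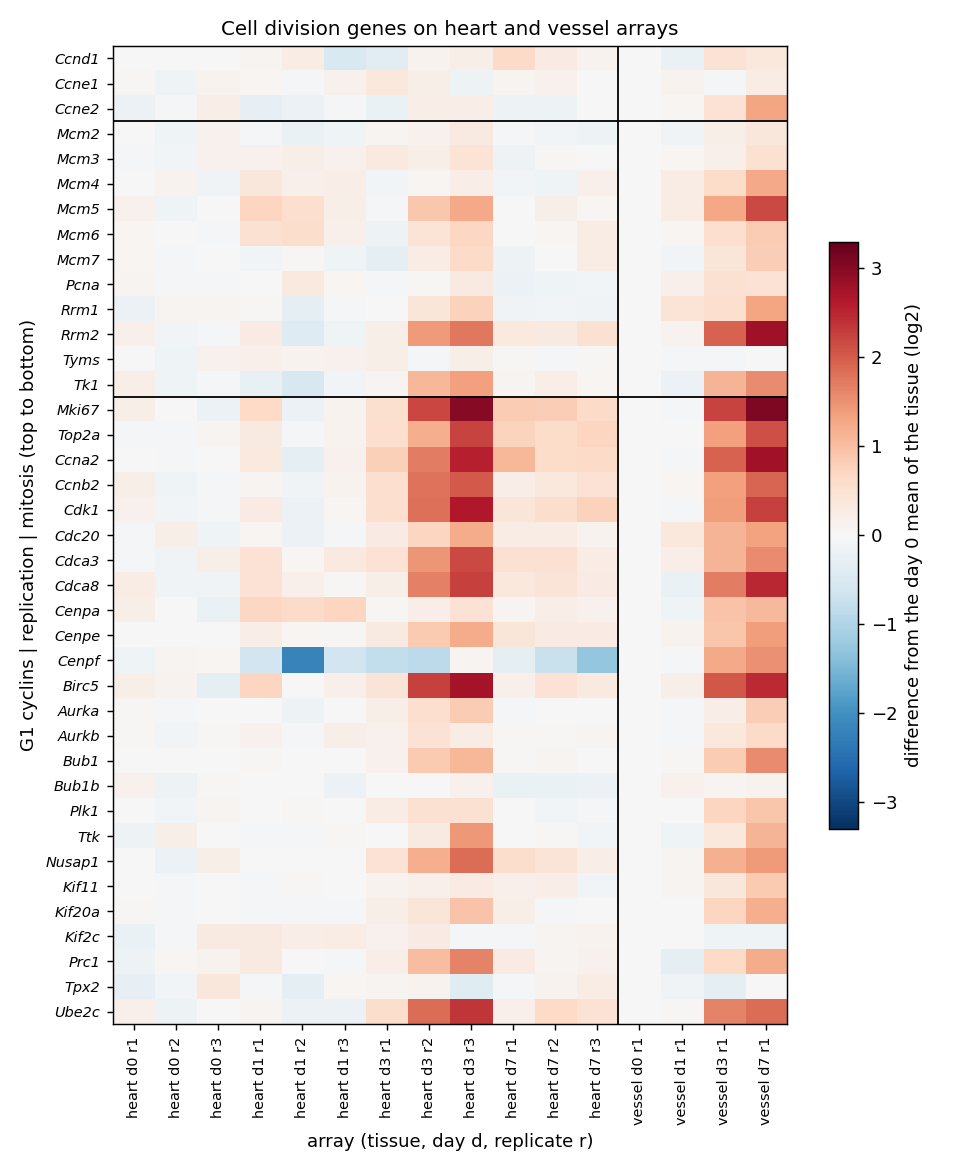
Difference of each measured member from the day 0 mean of its tissue (log2 scale, colour) on the 12 heart arrays and the 4 vessel arrays (columns), with the 3 G1 cyclins, 11 replication genes and 25 mitosis genes from top to bottom. Heart day 3 replicates 2 and 3 are red over most mitosis genes, with medians of 0.86 and 1.23, while day 3 replicate 1 has a median of 0.23 and the vessel arrays deepen from day 3 to day 7.

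The mitosis members were followed from entry into mitosis to exit. Mki67 encodes the Ki-67 antigen that coats mitotic chromosomes and marks cycling cells. Its intensity in the heart was 48.4, 41.0 and 33.9 on the day 0 arrays, 73.7, 33.6 and 46.0 at day 1, 66.2, 244 and 438 at day 3, and 86.3, 83.7 and 71.5 at day 7. The day 1 arrays overlapped both day 0 and day 3, the day 3 replicates 2 and 3 were above every other heart array, and the day 7 arrays lay above all day 0 arrays. Its mean went from 41.1 ± 7.22 (SD, n = 3) at day 0 to 249 ± 186 at day 3, a log2 difference of 1.91 ± 0.44 (limma adjusted p = 0.13). From day 1 it rose by 1.71 ± 0.44 (adjusted p = 0.047). That call was lost in 10 of the 12 fits that left out 1 heart array.

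Ccna2, the A cyclin that drives S phase and entry into mitosis, read 37.2, 35.2 and 36.9 at day 0 and 49.3, 26.2 and 41.9 at day 1. At day 3 it read 74.0, 154 and 294, and at day 7 it read 95.8, 64.5 and 65.6. All day 3 arrays were above all day 0 and day 1 arrays, and day 7 was above day 0 without overlap. The day 3 difference from day 0 was 1.68 ± 0.33 (limma adjusted p = 0.075), and the rise from day 1 was 1.63 ± 0.33 (adjusted p = 0.020).

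Cdk1, the kinase that cyclins A and B activate, read 54.1, 43.3 and 44.1 at day 0, 59.9, 39.2 and 49.5 at day 1, 77.2, 205 and 378 at day 3, and 67.2, 77.4 and 91.5 at day 7. Day 3 was above days 0 and 1 on every array, and its lowest array was within the day 7 range. It rose by 1.63 ± 0.36 from day 1 to day 3 (limma adjusted p = 0.028), and the difference from day 0 was 1.67 ± 0.36 (adjusted p = 0.11). Ccnb2, a B cyclin, read 25.9, 16.9 and 19.3 at day 0, 23.0, 17.7 and 23.3 at day 1, 37.7, 111 and 131 at day 3, and 26.4, 30.7 and 34.5 at day 7. All 3 day 3 arrays were the highest of the 12. Its rise from day 1 was 1.43 ± 0.28 (adjusted p = 0.018), and its difference of 1.46 ± 0.28 from day 0 had the lowest adjusted p among the members, 0.066.

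Top2a, the topoisomerase that untangles sister chromatids, read 35.1, 35.7 and 39.7 at day 0, 48.9, 35.0 and 41.5 at day 1, 62.0, 106 and 233 at day 3, and 71.2, 65.0 and 70.5 at day 7. Its day 7 values lay between the lowest and the middle day 3 array and above all of day 0. The rise from day 1 to day 3 was 1.21 ± 0.29 (limma adjusted p = 0.037). Nusap1, which bundles spindle microtubules, rose by 1.16 ± 0.25 (adjusted p = 0.024), from 36.5, 36.9 and 36.8 at day 1 to 57.0, 102 and 171 at day 3. Cenpe, the kinetochore motor that aligns chromosomes, rose by 0.69 ± 0.17 (adjusted p = 0.043). The mitotic kinases Aurka and Plk1 also rose, by 0.57 ± 0.13 and 0.40 ± 0.10 (adjusted p = 0.035 and 0.039), the smallest of the 13 rises.

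The genes of mitotic exit moved with those of entry. Ube2c, the ubiquitin-conjugating enzyme of the anaphase-promoting complex, read 40.2, 28.2 and 33.9 at day 0, 37.2, 27.3 and 27.5 at day 1, 59.0, 164 and 240 at day 3, and 40.4, 62.4 and 53.6 at day 7. Its rise of 1.70 ± 0.32 from day 1 had the lowest adjusted p of the members (limma, 0.017), and 1 day 7 array lay above the lowest day 3 array. Cdc20, the activator of the same complex, rose by 0.78 ± 0.19 (adjusted p = 0.038).

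Just outside the threshold from day 1 to day 3 were Cdca3 (1.09, limma adjusted p = 0.059), Birc5 (1.53, 0.064) and Prc1 (0.88, 0.068). Birc5, or survivin, is a subunit of the chromosomal passenger complex together with Cdca8 and Aurkb. Birc5 read 22.5, 20.2 and 11.2 at day 0, 38.9, 17.1 and 21.4 at day 1, 29.0, 144 and 208 at day 3, and 22.1, 31.1 and 25.9 at day 7. Its lowest day 3 array lay inside the ranges of days 1 and 7. Cdca8 was 21.1, 85.9 and 138 at day 3 against 22.3, 13.8 and 14.0 at day 0. Aurkb, the kinase of that complex, stayed between 8.31 and 19.7 on all 12 heart arrays and was not tested. Of the other members under the filter, the spindle checkpoint kinases Ttk and Bub1 had their highest heart value on day 3 replicate 3. Ttk read 20.1, 27.8 and 79.7 at day 3, and Bub1 read 9.42, 25.9 and 33.3.

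**Figure D2:**
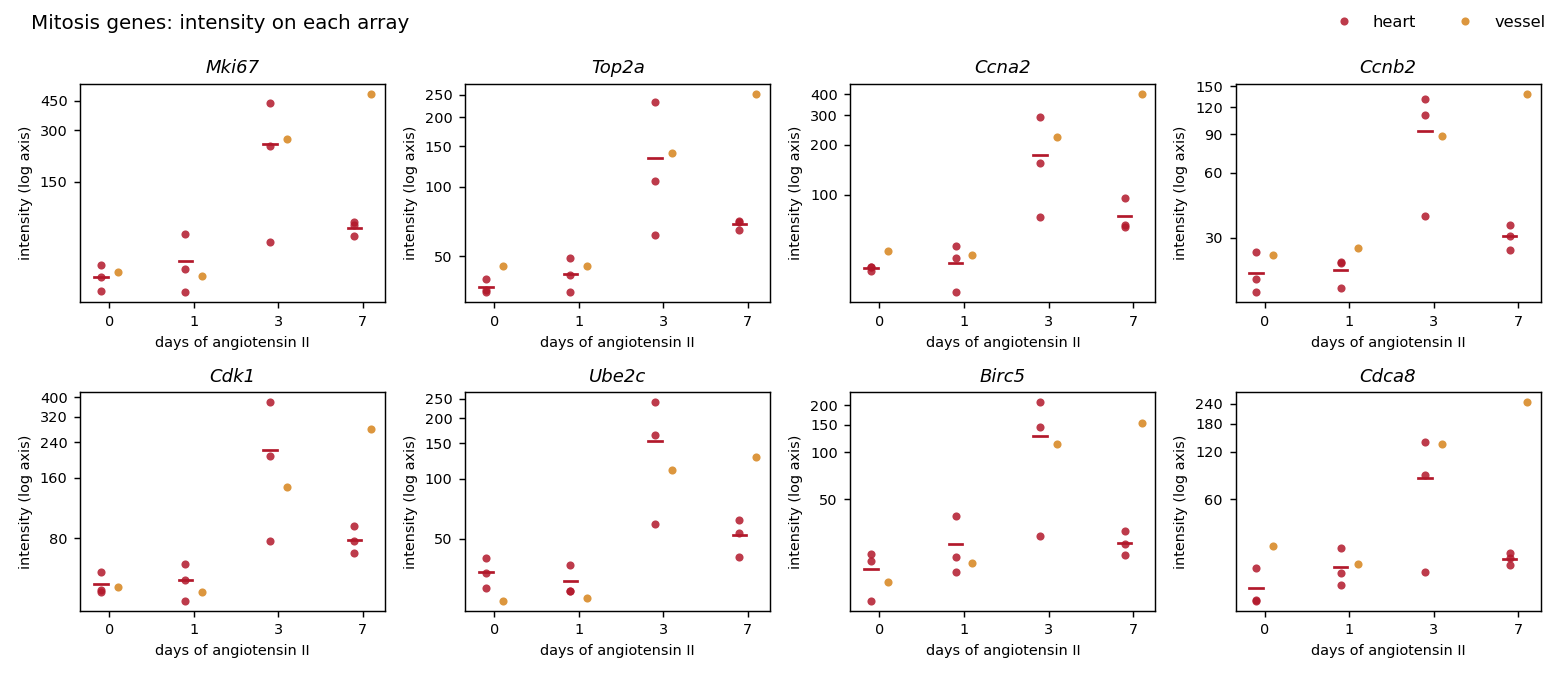
Intensity (log axis) of 8 mitosis genes against days of angiotensin II, 1 point per array, with heart in red and vessel in orange and a bar at the arithmetic mean of the 3 heart arrays. In heart the points separate at day 3, where Mki67 reads 66.2, 244 and 438, and the single vessel points are highest at day 7 in all 8 genes.

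Over the 20 tested mitosis members, 11 rose from day 1 to day 3 and 0 fell. Over all 14040 tested heart genes 2.83% rose and 1.47% fell in this comparison. At an unadjusted p under 0.05, 19 of the 32 tested members were higher and 1 was lower, against 12% and 8.15% of all tested genes. All day 3 arrays were above all day 1 arrays for 17 of the 39 measured members and below for 1, against 10.1% and 6.34% of measured genes. The median difference was 0.69 over the 25 mitosis members and 0.22 over the 11 replication members, against 0.01 over all genes. The count rested on particular libraries. None of the 13 passed once day 1 replicate 1, day 1 replicate 2 or day 3 replicate 2 was dropped (0 in each), and 5 passed once day 3 replicate 3 was dropped. Dropping day 1 replicate 3 gave 14 and dropping day 3 replicate 1 gave 18. Leaving out day 0 replicate 1, day 0 replicate 2 or any of the day 7 arrays gave 6, and leaving out day 0 replicate 3 gave 7. With only the 6 arrays of days 1 and 3 in the fit it was 0. The single calls were not equally stable over the 12 fits that left out 1 heart array. Those of Mki67, Aurka, Cdc20, Cenpe and Rrm2 were each lost in 10, and those of Plk1 and Top2a in 9. Ccnb2, Cdk1 and Tk1 lost theirs in 4, and Ccna2, Nusap1 and Ube2c in 3.

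Against day 0, 0 of the 32 tested members passed at day 3, where 0.0712% of all tested genes rose and 0.0142% fell. At an unadjusted p under 0.05 there were 20 higher members and 0 lower ones, against 5.52% and 6.45% of the genes tested. All 3 day 3 arrays were above all 3 day 0 arrays for 20 of the 39 measured members, 18 of them mitosis genes, against 6.89% of measured genes, and below them for 0, against 9.05%. The median was 0.73 over the mitosis members, 0.32 over the replication members and -0.01 over all genes. The largest differences after Mki67 were those of Birc5 (1.80 ± 0.43, limma adjusted p = 0.14), Ccna2, Cdk1 and Ube2c (1.60 ± 0.32, adjusted p = 0.081). The call turned on day 3 replicate 1: without it 18 members rose. Without day 1 replicate 3, 8 rose, and when the heart arrays were fitted together with kidney and brain 15 rose.

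Some mitosis members had other values in heart. The chosen probe sets of Kif2c, Tpx2 and Bub1b had day 3 differences of 0.13, -0.07 and 0.03 from day 0, while another probe set of each had 0.68, 0.44 and 0.64. Their remaining probe sets had 0.21 and 0.02 for Kif2c, 0.39 and 0.14 for Tpx2 and 0.42 for Bub1b. Cenpf, a kinetochore protein, read 165, 198 and 192 at day 0, 112, 27.9 and 112 at day 1, 97.4, 93.5 and 198 at day 3, and 143, 104 and 67.3 at day 7. Its day 1 arrays were all below its day 0 arrays, by -1.16 ± 0.38, which missed the threshold (limma adjusted p = 0.061), while day 3 replicate 3 lay between the 2 highest day 0 arrays. Cenpa, the histone variant of the centromere, was the 1 member that changed from day 0 to day 1. It read 430, 382 and 323 at day 0, 610, 591 and 620 at day 1, 389, 442 and 532 at day 3, and 403, 438 and 417 at day 7. All day 1 arrays were above every other heart array. The rise at day 1 was 0.67 ± 0.12 (adjusted p = 0.0061), and from day 1 to day 7 Cenpa fell by 0.52 on the log2 scale (limma adjusted p = 0.033).

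In the first of these contrasts 1 of 32 tested members rose and 0 fell, where 4.86% of tested genes rose and 8.57% fell. Before adjustment (p under 0.05), 3 members were higher and 1 lower, against 11.3% and 17.1% of genes. The day 1 arrays were all above the day 0 arrays for 5 of 39 members and all below for 1, against 9.84% and 15.8% of measured genes. The day 1 count was 2 without day 0 replicate 3, day 1 replicate 3 or day 3 replicate 3, and 3 without day 3 replicate 1. Kif2c, Cenpf, Mcm5 and Mcm6 were the genes gained. From day 1 to day 7, 2.8% of genes rose and 2.12% fell, and Cenpa was the 1 member that passed. Before adjustment (p under 0.05), 1 member was higher (12.2% of genes) and 3 lower (9.78%), and the day 7 arrays were all above those of day 1 for 10 of 39 members (12.7% of measured genes) and all below for 6 (9.83%). The Cenpa call did not pass in the 7 fits without day 0 replicate 2, day 1 replicate 1 or 2, day 3 replicate 2 or any day 7 array, while without day 3 replicate 3 Top2a passed too, a count of 2. The 2 other Cenpa probe sets were dim (10 to 14 and 26 to 27 in untreated heart) and differed by -0.06 and -0.20 at day 1, so the Cenpa result rests on 1 probe set. The other Cenpf probe sets were likewise dim, at 12 to 17.5.

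Between day 3 and day 7 no member passed (0 of 32, with 0% of all tested genes called in either direction), and 22 were lower and 0 higher at an unadjusted p under 0.05, against 3.7% and 3.3% of genes. The lowest p-values belonged to Plk1 (-0.47 ± 0.10), Ccnb2 (-1.11 ± 0.28), Aurka (-0.53 ± 0.13) and Ube2c (-1.16 ± 0.32), all with a limma adjusted p of 0.61. All day 7 arrays were below all day 3 arrays for 12 of 39 members (7.04% of measured genes), and above them for 0 (5.84%). Without day 3 replicate 1, 16 members were lower past the threshold. Against day 0, day 7 gave 0 called members, where 0.0427% of genes rose and 0.00712% fell. At an unadjusted p under 0.05, 2 members were higher (3.59% of genes) and 0 lower (5.29%). The 2 were Ccna2, higher by 0.78 ± 0.33 and Top2a by 0.68 ± 0.29 (adjusted p = 0.53 for both). Their 3 day 7 arrays were nonetheless above their 3 day 0 arrays, as they were for 12 of 39 members (8.28% of measured genes). The day 7 arrays of Pcna, Bub1b and Cenpf were all below their day 0 arrays, as were those of 10.8% of measured genes.

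Of the replication members, 2 of the 4 that supply deoxynucleotides rose in heart from day 1 to day 3, Rrm2 and Tk1. The other two, Rrm1 and Tyms, did not pass the test or the filter. Rrm2, the regulated subunit of ribonucleotide reductase, read 36.5, 27.6 and 28.4 at day 0, 40, 18.8 and 26.5 at day 1, 37.8, 107 and 140 at day 3, and 41.9, 41.3 and 49.8 at day 7. Day 3 replicate 1 lay inside the day 1 range and below day 7, and the other 2 were above all other heart arrays. It rose by 1.21 ± 0.30 from day 1 to day 3 (limma adjusted p = 0.041). Tk1, the thymidine kinase of S phase, read 58.3, 41.4 and 44.6 at day 0, 37.8, 28.3 and 44.3 at day 1, 52.0, 119 and 148 at day 3, and 52.3, 58.6 and 50.9 at day 7. It rose by 1.13 ± 0.25 from day 1 (adjusted p = 0.027), and day 3 overlapped day 0 through replicate 1. Rrm1, the large subunit of the reductase, differed by 0.39 ± 0.16 at day 3 from day 0 (adjusted p = 0.37), and Tyms, thymidylate synthase, lay between 6.58 and 12.7 on all heart arrays and was not tested.

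The Mcm genes encode the 6 subunits of the helicase ring that opens DNA at origins. Mcm5 read 74.5, 57.6 and 65.8 at day 0, 118, 104 and 77.0 at day 1, 63.5, 136 and 178 at day 3, and 66.1, 77.0 and 69.5 at day 7. Day 1 lay wholly above day 0, and day 3 replicate 1 lay within day 0. The day 3 difference of 0.70 ± 0.25 from day 0 did not pass (limma adjusted p = 0.30). Mcm6 read 147, 157 and 113 at day 1 against 104, 98.0 and 95.7 at day 0, and 86.3, 142 and 170 at day 3. Mcm2, Mcm3, Mcm4 and Mcm7 differed by 0.06 to 0.32 at day 3. The highest of these was Mcm3 (0.32 ± 0.10, adjusted p = 0.23), and Mcm2 read 200, 178 and 224 at day 0 and 212, 221 and 248 at day 3, with overlap.

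Pcna, the sliding clamp of the replicative polymerases, was bright in every heart sample and differed little. It read 1361, 1251 and 1255 at day 0, 1290, 1611 and 1338 at day 1, 1239, 1334 and 1574 at day 3, and 1130, 1173 and 1201 at day 7. The day 3 difference was 0.09 ± 0.11 (limma adjusted p = 0.80), and day 7 lay below day 0 on every array without passing the test.

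The G1 cyclins did not move with either group in heart. Ccnd1, cyclin D1, the growth-factor sensor that opens the cycle, read 383, 386 and 377 at day 0, 405, 456 and 265 at day 1, 289, 413 and 437 at day 3, and 600, 464 and 416 at day 7. Days 1 and 3 spread on both sides of day 0, and day 7 was above it. The day 3 difference was -0.03 ± 0.20 (limma adjusted p = 0.98). Ccne1, cyclin E1, was between 55.1 and 85.7 on all 12 heart arrays, with a day 3 difference of 0.13 from day 0. Ccne2 was between 11.6 and 22.6 and was not tested.

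**Figure D3:**
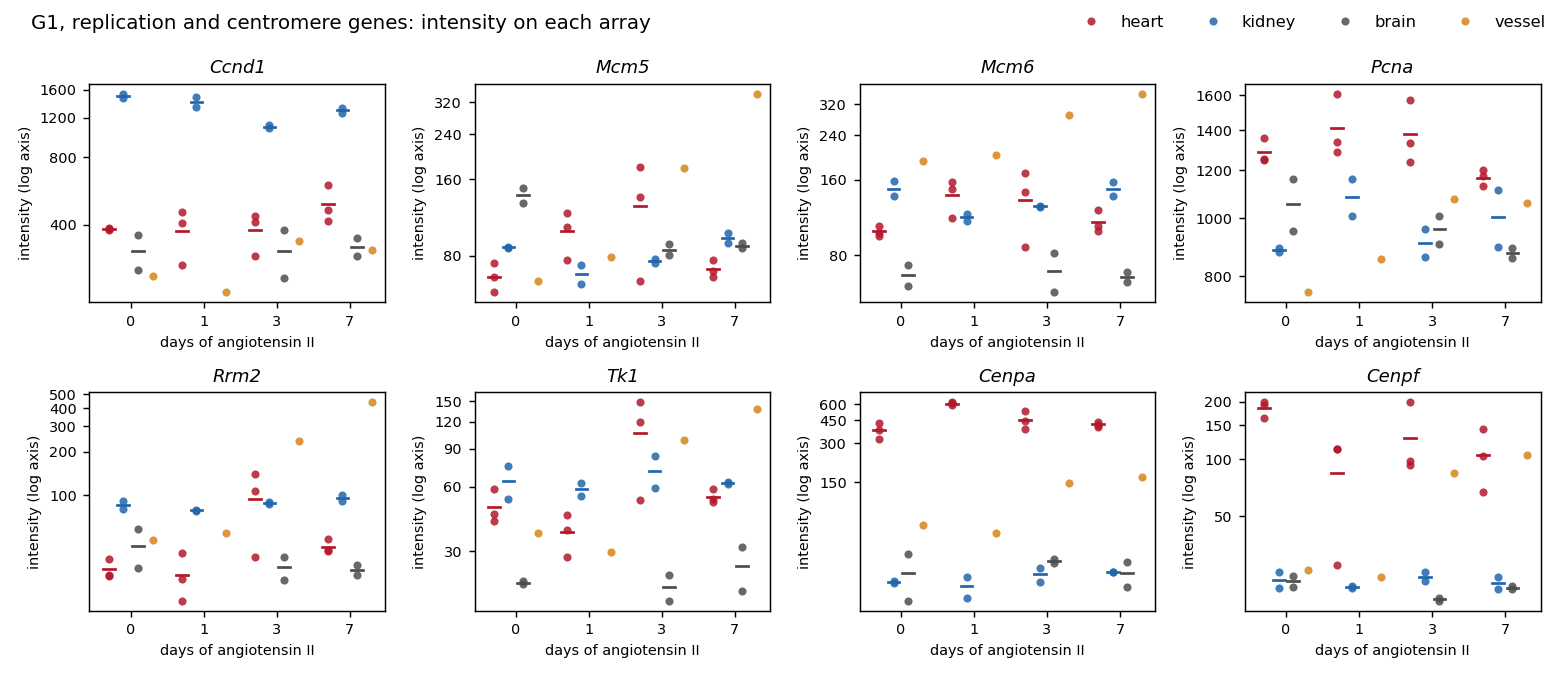
Intensity (log axis) of Ccnd1, 5 replication genes, Cenpa and Cenpf against days of angiotensin II, 1 point per array in heart (red), kidney (blue), brain (grey) and vessel (orange), with bars at the arithmetic mean where a group has several arrays. Rrm2 and Tk1 are high on 2 of 3 heart arrays at day 3 and on the vessel arrays at days 3 and 7, Ccnd1 is highest in kidney and Cenpa is highest in heart.

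Markers of other cell types moved on the same heart arrays. The median difference of the 25 mitosis members was 0.23, 0.86 and 1.23 on day 3 replicates 1, 2 and 3. That of 12 fibroblast markers was 0.26, 1.06 and 1.41 on the same arrays, and that of 13 macrophage markers 0.22, 0.44 and 0.92. All 3 lists had their lowest day 3 median on replicate 1 and their highest on replicate 3. This order was not particular to them. The replication members (0.00, 0.24 and 0.62), the smooth muscle markers (-0.17, 0.12 and 0.27) and the endothelial markers had it too. So did the lists of inhibitors and activators described below. The lymphocyte medians ran the other way (0.03, -0.04 and -0.08), while the summed lymphocyte markers had the order of the mitosis medians (772, 848.5 and 1006.7). The summed fibroblast markers were 15996 to 23430 at day 0, 15592 to 17932 at day 1, 24187 to 42084 at day 3 and 25888 to 29590 at day 7. The summed macrophage markers were 9275 to 12024, 11896 to 18819, 12276 to 19571 and 11021 to 17096 on the same days. The endothelial medians at day 3 were -0.28, -0.23 and 0.13, and the cardiomyocyte medians were 0.02, -0.01 and -0.08.

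From day 1 to day 3, 7 of 12 fibroblast markers and 0 of 13 macrophage markers rose, against 2.83% of all tested genes. Against day 0 at day 3, 1 of 12 fibroblast markers rose, against 0.0712% of all tested genes. It was Col1a1, a chain of type I collagen, which rose by 1.76 ± 0.27 (limma adjusted p = 0.033). At an unadjusted p under 0.05, 8 of the 12 fibroblast markers were higher, against 5.52% of all tested genes. At day 1 the order differed. The macrophage medians were 0.91, 0.88 and 0.16, while the mitosis medians were 0.10, -0.05 and 0.03. Of 13 macrophage markers 5 rose from day 0, against 4.86% of all tested genes. The part of these cell types in the division gene result was not tested.

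**Figure D4:**
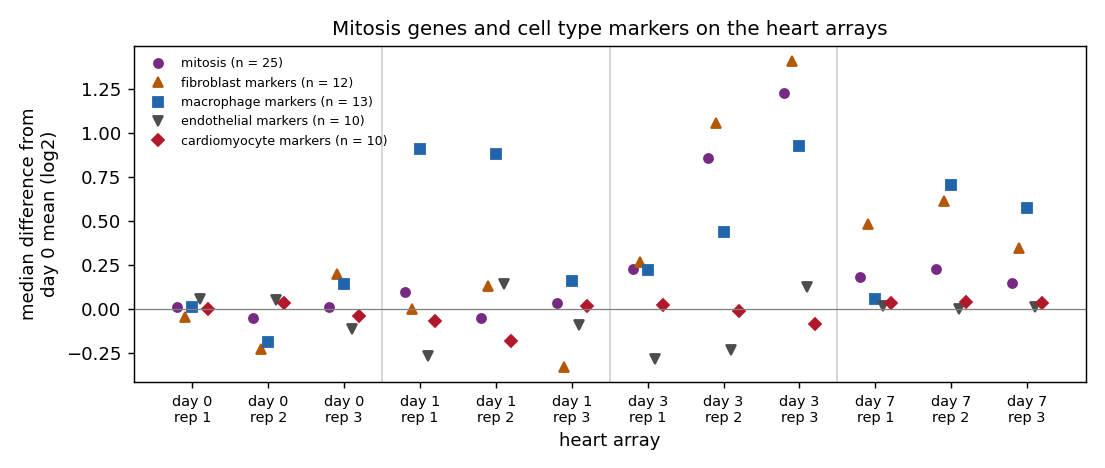
Median difference from the day 0 mean (log2 scale) of the 25 mitosis genes and of markers of fibroblasts (12), macrophages (13), endothelium (10) and cardiomyocytes (10) on each of the 12 heart arrays, 1 symbol per list and array. At day 3 the mitosis medians of 0.23, 0.86 and 1.23 stand in the same order as the fibroblast medians of 0.26, 1.06 and 1.41. The endothelial medians of -0.28, -0.23 and 0.13 have that order too. At day 1 the macrophage medians of 0.91 and 0.88 on replicates 1 and 2 stand apart from the mitosis medians.

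In the vessel the division genes were near day 0 after 1 day, higher at day 3 and higher still at day 7. These are single arrays per day, so the values describe 4 libraries and carry no test. At day 1, 0 of 39 members were at least 2-fold higher than on the day 0 array (0.511% of all genes). At day 3, 15 were (3 replication and 12 mitosis genes, against 3.76% of all genes), and at day 7, 24 were (1 G1 cyclin, 5 replication and 18 mitosis genes, against 3.24%). No member was at least 2-fold lower on any day, against 0.594%, 1.02% and 0.962% of all genes at days 1, 3 and 7. The median of the mitosis members relative to day 0 was -0.0039 at day 1, 0.94 at day 3 and 1.39 at day 7. Replication members had medians of 0.08, 0.55 and 0.83, and all genes 0.03, -0.01 and -0.01.

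Mki67 had the widest vessel difference at day 7. It read 44.3, 42.0, 267 and 494 on the vessel arrays of days 0, 1, 3 and 7, an 8.47-fold difference between day 7 and day 0 on the log2(intensity + 16) scale. Ccna2 read 45.9, 43.6, 222 and 404 (6.79-fold at day 7). Cdk1 read 45.8, 43.1, 144 and 278. In each of them day 1 was just under day 0 and day 7 was the highest.

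Top2a read 45.6, 45.4, 140 and 253, Ccnb2 read 25.1, 26.8, 88.1 and 139, and Birc5 read 14.9, 19.6, 113 and 154. Cdca8, which tethers the passenger complex to centromeres, read 30.4, 23.6, 133 and 245. Aurkb read 11.8, 10.7, 19.6 and 27.4, a day 7 difference of 0.64. The chosen probe sets of Kif2c, Tpx2 and Bub1b did not follow this course. Kif2c, a motor that shortens microtubules, read 26.7, 26.2, 22.6 and 22.7 (-0.14 at days 3 and 7), Tpx2 read 44.0, 39.7, 32.6 and 44.2, and Bub1b, a checkpoint protein, read 20.2, 23.6, 22.8 and 23.3. Another probe set of each was higher in vessel at days 3 and 7. The log2 differences were 1.35 and 1.76 for Kif2c, 0.68 and 0.63 for Tpx2 and 0.43 and 0.98 for Bub1b. On those days the remaining probe sets of Kif2c and Tpx2 differed by -0.03 to 0.42, and that of Bub1b by 0.42 and 0.62.

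Among the replication genes of the vessel, Rrm2 had the widest difference, at 49.6, 54.7, 236 and 440 (6.96-fold at day 7). Mcm5 followed at 63.6, 79.1, 178 and 347 (4.56-fold), and Tk1 read 36.5, 29.6, 99.2 and 138. The other Mcm members differed less. Mcm4 read 108, 132, 174 and 282, Mcm7 read 294, 274, 395 and 523, and Mcm2 read 187, 170, 217 and 249. Pcna read 754, 856, 1074 and 1061, the 1 replication member that was not above day 3 at day 7.

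Ccne2, the E cyclin that was dim in heart, read 12.5, 13.9, 23.7 and 54.5 in vessel and was the 1 G1 cyclin at least 2-fold higher at day 7 (a log2 difference of 1.30). Ccnd1 read 236, 200, 338 and 308, and Ccne1 read 65.3, 71.3, 61.6 and 79.9. Cenpa, which in heart was highest at day 1, read 70.1, 61.7, 150 and 164 in vessel, with its lowest value at day 1. Cenpf read 26.1, 24.0, 84.1 and 105 in vessel.

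The course after day 3 ran in opposite directions in the heart and vessel values. From day 3 to day 7, 37 of 39 members were higher in vessel and 37 of 39 lower in heart, 36 of them in both. The median differences were 0.42 in vessel and -0.48 in heart, against 0.00 and -0.01 over all genes. With 1 vessel array a day this difference between tissues was not tested. Summed fibroblast markers on the vessel arrays were 32443, 20254, 68760 and 63181 at days 0, 1, 3 and 7, and summed macrophage markers were 6113, 7625, 21856 and 14215. Both were highest at day 3, the cardiomyocyte markers were lowest and the brain and adrenal markers highest then, and the mitosis members were highest at day 7. The part of these in the result was not tested.

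**Figure D5:**
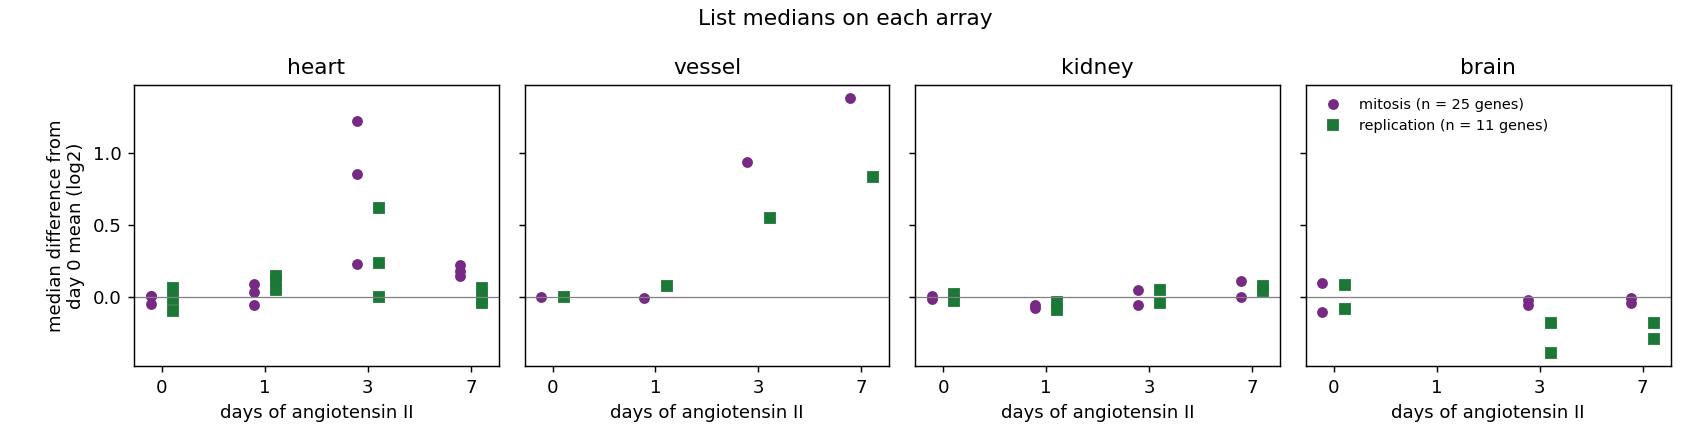
Median difference from the day 0 mean (log2 scale) of the 25 mitosis genes (circles) and the 11 replication genes (squares) on each array of heart, vessel, kidney and brain against days of angiotensin II. The heart medians spread from 0.23 to 1.23 at day 3 for mitosis and return to 0.15 to 0.23 at day 7, the vessel medians reach 0.94 and 1.39, and the kidney mitosis medians stay between -0.07 and 0.12.

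In the kidney no division gene passed the test on any day, and the mitosis genes stayed near their day 0 values. Here 29 members were tested. Ccne2, Tyms, Ccnb2, Birc5, Aurkb, Bub1, Ttk, Kif11, Kif20a and Kif2c did not pass the filter. Cenpf passed only with days 0 and 3 both counted, and Ube2c only with days 3 and 7 both counted. Mki67 read 34.7 and 26.1 at day 0, 24.3 and 20.8 at day 1, 24.1 and 41.5 at day 3, and 27.6 and 37.2 at day 7. Ccna2 read 39.4 and 44.3, 32.1 and 31.9, 42.7 and 51.0, and 36.9 and 55.6 on the same days. Kidney day 1, both arrays, and day 3 replicate 2 are those with high adipocyte markers, whose part in the member values was not tested. Cdk1 was between 35.1 and 47.7 on all 8 kidney arrays, and Rrm2 between 78.2 and 101.

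At day 1, 0 of 29 members were called, where 0.26% of genes rose and 0.239% fell, and at an unadjusted p under 0.05 there were 4 lower members (6.82% of genes) and 0 higher ones (9.44%). The 4 were Tpx2, the activator of Aurora A (-0.42 ± 0.09, limma adjusted p = 0.10), Mcm6 (-0.34, 0.17), Mcm5 and Mcm2. The Tpx2 value rests on the chosen probe set, which stood apart from the others of that gene in heart and vessel. Ccnd1 was bright in kidney, at 1476 and 1539 at day 0, 1479 and 1346 at day 1, 1080 and 1112 at day 3, and 1266 and 1332 at day 7. Both day 3 arrays were below every other kidney array, and the difference was -0.45 ± 0.08 (adjusted p = 0.34). Mcm7 went the other way, at 322 and 296 at day 0 and 407 and 393 at day 7 (0.36 ± 0.09, adjusted p = 0.69). At day 3 and at day 7, 0% of all kidney genes were called in either direction. At an unadjusted p under 0.05, 2 members were higher and 1 lower at day 3 (4.95% and 3.5% of genes), and 1 higher and 1 lower at day 7 (3.91% and 2.77%).

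In the brain most mitosis genes were dim, and 3 of the 4 lowest p-values at day 3 belonged to genes of the Mcm helicase. Of 39 members 23 were tested, 11 of them mitosis genes. Among those under the filter were Mki67, Top2a, Ccnb2 and Birc5. No member was called at day 3 or day 7 (0 of 23 at each), and 0% of all brain genes were called in either direction at both days. At an unadjusted p under 0.05, 1 member was higher and 3 lower at day 3 (2.44% and 4.94% of genes), and 1 higher and 1 lower at day 7 (2.66% and 4.47%). Mcm5 read 147 and 129 at day 0, 88.5 and 80.5 at day 3, and 89.4 and 85.8 at day 7, with all later arrays below day 0. The differences were -0.62 ± 0.12 and -0.57 ± 0.12 (limma adjusted p = 0.66 and 0.67). Mcm3 and Mcm2 were lower at day 3 at an unadjusted p under 0.05, by -0.41 ± 0.13 and -0.37 ± 0.14, and the median over the 11 replication members was -0.33 at day 3 and -0.26 at day 7. Tpx2 was higher on every treated array (17.8 and 26.5 at day 0, 44.9 and 32.8 at day 3, 48.3 and 48.5 at day 7), with a difference of 0.52 ± 0.17 at day 3 and 0.76 ± 0.17 at day 7. These values rest on the chosen Tpx2 probe set. At day 3 it differed by -0.07 in heart and -0.31 in vessel, where the other Tpx2 probe sets were higher than at day 0.

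Brain day 0 replicate 2, the array with high neutrophil markers, was also the brain array with the highest Mki67, Top2a and Ccna2. Mki67 read 41.8 there and 16.4 on the other day 0 array, and 16.4 to 21.8 on the treated ones. Top2a read 35.5 and 16 at day 0 and 16.4 to 20 later. The other brain day 0 array is the one with high kidney markers. The part of these markers in the brain differences was not tested.

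The difference between tissues in their response was tested as a contrast of contrasts in a joint fit of heart, kidney and brain. Heart against kidney at day 3 gave 0 called members of 32 (0.034% of genes were called higher and 0.0204% lower), and 18 were higher in heart at an unadjusted p under 0.05 against 3.57% of genes. The median was 0.47 over the members, against -0.01 over all genes. Ccnb2 had the lowest adjusted p (1.51 ± 0.37, limma adjusted p = 0.18), and Mki67 differed by 1.85 ± 0.62 (0.35). Without heart day 3 replicate 1, 16 members passed. At day 1, 0 members were called (0.958% higher and 2.51% lower over all genes), with 3 higher and 1 lower at an unadjusted p under 0.05 (6.2% and 12.2%). At day 7, 0 were called (0.0136% in each direction) and 0 had an unadjusted p under 0.05.

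Heart against brain at day 3, a comparison added after seeing the data, gave 2 called members of 33, where 0.468% of genes were called higher and 0.254% lower. Before adjustment (p under 0.05), 24 were higher and 1 lower, against 7.55% and 4.77% of genes. Mcm3 differed by 0.72 ± 0.15 (limma adjusted p = 0.024) and Ccnb2 by 1.64 ± 0.37 (0.043). Mcm3 read 89.5, 85.3 and 103 in heart at day 0 and 119, 107 and 132 at day 3, and 49.7 and 62.7 in brain at day 0 and 38.9 and 37.6 at day 3. The heart values were higher at day 3 and the brain values lower, without overlap in either tissue. Ccnb2 in brain, at 14.6 and 19.2 at day 0 and 15.6 and 10.5 at day 3, was under the brain filter, so it was tested through its heart values alone. The count was 20 without heart day 3 replicate 1 and 6 without brain day 0 replicate 2. It was 0 without heart day 0 replicate 1, heart day 0 replicate 2, heart day 3 replicate 3 or brain day 3 replicate 1, and 1 without any of 17 other arrays, 1 at a time. At day 7, 0 were called (0.0802% higher and 0.254% lower), with 1 lower at an unadjusted p under 0.05 (4.31% of genes).

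Untreated tissues were compared in the same joint fit, and members were called in smaller shares than all tested genes. Between untreated heart and kidney 4 of 32 tested members were higher in heart and 5 lower, where 28.6% and 27.2% of all genes were called. Cenpa was higher in heart by 3.23 ± 0.18 and Cenpf by 2.35 ± 0.35, with Cenpa at 378 ± 53.8 (SD, n = 3) in heart and 25.7 ± 0.667 (n = 2) in kidney. Ccnd1 was lower in heart than in kidney by -1.94 ± 0.22, and Rrm2 by -1.13 ± 0.30. Between heart and brain 10 of 33 were higher in heart and 4 lower (37.7% and 35.1% of all genes), and the 4 were Ccne2 (-1.21 ± 0.15), Mcm5 (-0.92 ± 0.23), Ccne1 (-0.70 ± 0.14) and Mcm4 (-0.57). Between kidney and brain 9 of 30 were higher in kidney and 4 lower (33.7% and 32.3%), led by Ccnd1 at 2.26 ± 0.24, and Ccne2, Ccne1, Mcm4 and Mcm5 were lower in kidney than in brain. The Mcm5 call was lost in 22 of the 26 fits that left out 1 array, and with no filter, quantile normalization, the mean of probe sets, a pseudocount of 1 or the replicate block. All of these differences are those of limma at an adjusted p under 0.05.

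Beyond the members, 4 other lists of the pathway were read in the same fits. They are 45 measured replication genes, 69 mitosis genes, 23 inhibitors and 26 activators. From day 1 to day 3 in heart, 10 of the 47 tested other mitosis genes rose and 0 fell, against 2.83% and 1.47% of all tested genes. The largest were Cep55 (1.40 ± 0.37), which recruits the abscission machinery, Anln (1.33 ± 0.28), which organises the contractile ring, Spc25 (1.27 ± 0.31), a kinetochore subunit, Mad2l1 (0.99 ± 0.21), a spindle checkpoint protein, and Stmn1 (0.96 ± 0.23), which destabilises microtubules. Of 41 tested other replication genes 2 rose, close to that background, Gmnn (0.93 ± 0.19), which keeps origins from being licensed again, and Mcm8 (0.51 ± 0.10). Against day 0 at day 3, 0 of either list passed, while 26 other mitosis genes were higher and 2 lower at an unadjusted p under 0.05, and 8 other replication genes were higher, against 5.52% and 6.45% of all tested genes. Their medians were 0.36 and 0.05. Ncaph, a condensin subunit, and Pbk, a mitotic kinase, came nearest (0.64 ± 0.12 and 0.86 ± 0.17, limma adjusted p = 0.065 and 0.081).

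At day 1 in heart, 3 of 22 tested inhibitors rose from day 0 and 2 fell, where 4.86% of all tested genes rose and 8.57% fell. Gadd45g, a stress-induced growth arrest gene, rose by 2.30 ± 0.30 (limma adjusted p = 0.0015), Btg2, an antiproliferative transcript regulator, by 1.93 ± 0.35 (0.0059) and Btg1, its relative, by 0.74 ± 0.20. Cdkn1c, the kinase inhibitor p57, fell by 0.85 on the log2 scale (adjusted p = 0.0041), and Ccng1 fell by 0.63. Of 22 tested activators 1 rose and 1 fell, near the shares over all genes. Myc rose by 1.64 ± 0.36 (adjusted p = 0.013) and Tfdp2, an E2F partner, fell by 0.70 (0.010). Of the 41 tested other replication genes 3 fell at day 1, a share under that of all genes, led by Gmnn at -1.13 ± 0.19 (0.0040) and Dut, which removes dUTP, at -0.68 ± 0.13. Of the other mitosis genes Lmnb1 rose by 0.47 and Cenpp and Pttg1 fell, by 0.43 and 0.33, both shares under those of all tested genes.

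By day 3 no inhibitor or activator differed from day 0 past the threshold. There, 4 inhibitors were higher and 2 lower, and 2 activators higher, at an unadjusted p under 0.05. Over all tested genes 5.52% were higher and 6.45% lower at that threshold. Cdkn1c differed by -0.63 ± 0.14 (limma adjusted p = 0.13), Gadd45g by 1.07 ± 0.30 (0.19), Cdk6 by 0.49 ± 0.13 (0.17) and Myc by 0.61 ± 0.36 (0.54). From day 1 to day 3 Gadd45g fell by 1.24 and Ccng1 rose by 0.49. The p21 inhibitor gene Cdkn1a and the transcription factor genes E2f1 and Foxm1 differed by 0.27 ± 0.30, 0.05 ± 0.10 and -0.05 ± 0.13 at day 1 (adjusted p = 0.63, 0.82 and 0.86) and by -0.06, 0.05 and 0.01 at day 3. Mybl2 did not pass the filter in heart. In kidney and brain 0 genes of the 4 lists were called on any day. In kidney at day 1, 6 of 22 tested inhibitors were higher at an unadjusted p under 0.05 (9.44% of all genes), and Cdkn1a differed by 1.09 ± 0.21 (adjusted p = 0.083). The kidney day 1 arrays also carried more adipocyte markers than day 0, and their part in these values was not tested.

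The choice of probe set mattered for several members, in both directions. The 39 members had 92 probe sets in all, and 29 members had several. In heart at day 3, 13 probe sets of 12 genes were at least 2-fold above day 0, 11 of them the chosen ones. A second Cdc20 probe set read 53.4, 211 and 226 on the day 3 heart arrays, a difference of 1.32 against 0.73 for the chosen one. A second Kif2c probe set read 9.25, 10.4 and 10.3 at day 0 and 10.5, 21.5 and 56.8 at day 3, against 19.3, 23.3 and 35.2 at day 0 and 29.6, 34.0 and 24.6 at day 3 for the chosen one. Another Kif11 probe set differed by 0.43 in heart at day 3, against 0.19 for the chosen one. In the other direction, the Top2a probe sets not chosen differed by -0.04 and 0.09 in heart at day 3, against 1.34 for the chosen one. Those of Rrm2 differed by 0.22 and 0.39, against 1.12. That of Nusap1 differed by -0.01, against 1.17, and that of Aurka by -0.01, against 0.52. The remaining Cdc20 probe set differed by 0.05. All 4 Tyms probe sets were under 13 in heart, and 20 member probe sets were under the 40th percentile on all 12 heart arrays.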

How the data were processed

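RNA of whole heart, kidney, brain and vessel was hybridized to Affymetrix Mouse Genome 430 2.0 arrays, 30 in all and in 15 groups named by the labels. The values deposited by the authors are linear intensity values, 1 for each probe set on each array. The submitters' processing notes name Affymetrix Expression Console as the tool. For its algorithm, version and settings, nothing is given in the sources used here. They ranged from 3.18 to 22424 and were not normalized further. Arrays give no read depth, so their number limits the precision.

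Of 45101 probe sets, 64 were controls, 34945 had a single symbol, 932 several and 9160 none. Genes (18193, of which 9010 had several probe sets) were read from the single-symbol probe set with the highest mean of log2(intensity + 16). After the filter, heart kept 14040 genes, kidney 14214, brain 14109 and vessel 14295. Group means were fitted per tissue with limma 3.58.1 under R 4.3.3 (eBayes, Benjamini-Hochberg over all tested genes, 0.05), and tissues were compared in a joint fit of 26 arrays. Tables and figures used Python 3.11.15, pandas 2.3.3 and matplotlib 3.10.9. The fits were tested on simulated data.

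The members, lists, markers and tests were chosen with earlier results of these data known. All 40 members are accounted for by role. Values per array were planned for 16 fixed members, for members called against day 0 and for up to 8 called elsewhere. Also planned were up to 5 called genes of each other list and Cdkn1a, Foxm1, Mybl2 and E2f1. Among the fixed members Ccnb1 had no values, and Aurkb and Ccne1 are given as ranges in heart. Further values, such as those of Cdca8, Cenpf, Ttk, Bub1, Mcm6 and the second probe sets, were chosen after they were seen. Alternatives were another pseudocount (1 or 64), no filter, the mean of all probe sets, quantile normalization, trended or robust variance, the joint fit, only the 2 groups compared, the replicate number as a block, and leaving out each array. Heart against brain was added after seeing the data.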

Additional observations from a re-analysis of the deposited data

Results flagged for a closer look

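The response of 2 members at day 3 differed between heart and brain by a test of the difference itself, the contrast of the 2 tissues' changes from day 0 in the joint fit. The difference for Mcm3 was 0.72 on the log2 scale, with heart values above and brain values below their day 0 arrays. The difference for Ccnb2 was 1.64, with higher heart values at day 3 and brain values under the filter on weak signals. Ccnb2 entered this comparison through its heart values alone. Its call was lost in 21 of the 26 fits that left out 1 array and with no filter, a pseudocount of 64 or the replicate block. The Mcm3 call was lost in 4 of those 26 fits and with the mean of probe sets. No cause was tested.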

How the results depend on the processing

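The values here are counts of called members, apart from the untested vessel counts past 2-fold and the correlations at the end. Past the threshold, 0 differences changed direction. The 13 rises of heart from day 1 to day 3 were 8 with no filter, 7 with a pseudocount of 64, 7 with the replicate number as a block and 0 with only the 2 groups compared. The 1 call at day 1 was 0 with the mean of probe sets and 2 in the joint fit. The 1 call from day 1 to day 7 was 0 with the mean of probe sets, the block, the joint fit or only the 2 groups. Heart at day 3 against day 0 had 0 calls and 15 in the joint fit, and day 7 against day 0 had 0 calls and 4 with only the 2 groups. Heart against kidney at day 1 had 0 calls, and 1 with the mean of probe sets or a pseudocount of 64. The 2 calls of heart against brain at day 3 became 1 with no filter, a pseudocount of 64 or the block, 3 with quantile normalization (Ccna2 gained) and 3 with the mean of probe sets (Mcm3 lost, Cdc20 and Mcm5 gained). The 24 vessel members at least 2-fold higher at day 7 became 13 with a pseudocount of 64. Leaving out 1 array at a time gave, in heart, 1 to 3 at day 1, 0 to 18 at day 3, 0 to 0 at day 7, 0 to 18 from day 1 to day 3, 0 to 2 from day 1 to day 7 and 0 to 16 from day 3 to day 7, and 0 throughout in kidney and brain. It gave 0 to 2, 0 to 16 and 0 to 0 for heart against kidney at days 1, 3 and 7, and 0 to 20 and 0 to 0 for heart against brain at days 3 and 7. Untreated tissues gave 7 to 12 (heart and kidney), 11 to 17 (heart and brain) and 9 to 14 (kidney and brain). A group reduced to 1 array takes its spread from the remaining groups of the fit. The cause of these shifts was not tested beyond the construction of each alternative. Nothing in the labels pairs the samples by replicate number. Same-numbered arrays of different days correlated in their deviations at -0.33 to 0.15 in heart, -0.09 to 0.24 in kidney and -0.64 to 0.48 in brain. The kidney median was 0.15 for same-numbered and -0.15 for differently numbered arrays. With 2 arrays a group these are opposite by construction, so in kidney and brain the values cannot exclude a factor shared by replicate number. With 2 or 3 arrays a group and weak signals for many members, calls in the heart at day 3 changed when single arrays were left out.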
